A study of Oryza sativa with 30 samples.

Results

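The response of leaves of the wild-type rice line DJ to 40 Gy of gamma rays was measured in 4 RNA sequencing libraries, 2 from DJ seedlings sampled 6 h after irradiation and 2 from untreated DJ seedlings. They were taken by label from a series of 30 libraries of rice (Oryza sativa) leaves. All seedlings were grown for 14 days at 26 °C under 13 h of light and 11 h of darkness on MS medium at 0.5 strength, and the irradiated ones received gamma rays of a 60Co source at 1 Gy per minute. DJ is labelled as wild type and carries no labelled mutation or transgene, and the labels do not say whether a library came from 1 plant or from pooled plants. A further 6 libraries with the same gene rows entered the fit. Of these, 2 untreated and 2 irradiated (40 Gy, 6 h) libraries were of the mutant line labelled ku70. The others were 1 irradiated library of the line labelled TOP6A3-OE1, an overexpressor of a topoisomerase VI subunit, and 1 of TOP6A3-OE1 in an atm-2 background. Only the ku70 libraries added to the estimate of the spread, since the TOP6A3-OE1 groups had 1 library each.

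Gamma rays break DNA, and the double-strand breaks are sensed in plants by the kinase ATM, while ATR responds to single-stranded DNA and stalled replication. In Arabidopsis both kinases act through the NAC transcription factor SOG1, which raises transcripts for nucleotide supply, homologous recombination and cell cycle arrest. In grown leaves most cells no longer divide, and their mRNA is dominated by nuclear genes for photosynthesis, whose products work in the chloroplast. The comparison of irradiated with untreated DJ leaves asks which of these transcripts differ soon after the dose.

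The authors' values, in FPKM (reads scaled by gene length and by a library size), were whole multiples of the value of 1 read, so that 10812846 to 14532121 reads were recovered for each DJ library. Reads were seen for 20454 and 17782 of 40718 listed genes in DJ control replicates 1 and 2, and for 18859 and 19109 genes in DJ 40 Gy replicates 1 and 2. Pearson's r across the 23063 tested genes was 0.864 between the controls and 0.845 between the irradiated libraries. The library size that the authors scaled to was 0.969 and 0.945 times the recovered reads in the controls and 1.20 and 1.23 times in the irradiated libraries. The 39 mesophyll markers, nearly all of them photosynthesis genes (37), summed to 60755 and 67492 FPKM in the controls and 21742 and 21254 FPKM in the irradiated libraries, and 24 of them had reads in all 4 libraries. Of the root markers, the silicon transporter gene LSI1 stood at 121 and 63.2 FPKM in the controls and 43.1 and 57.9 FPKM after irradiation. RCc3 had 6.55 FPKM in DJ control replicate 2 and 0 in the other 3 libraries, and 3 of 7 root markers were at 0 in all 4. The markers of proliferating cells summed to 292 and 295 FPKM in the controls and 298 and 381 FPKM in the irradiated libraries, and 14 of 42 were at 0 in all 4. Most of these sums came from Os02g0800100, at 191 and 180 FPKM in the controls and 195 and 283 FPKM after irradiation. CycB1 and CDKB2 were at 0 in all 4, and CDKB stood at 1.04 and 9.55 FPKM in the controls and 6.07 and 3.48 FPKM after irradiation. The sum is thus no measure of proliferation. Those of epidermis and cuticle summed to 449.6 and 321 FPKM in the controls and 284 and 578 FPKM in the irradiated libraries. Of these 50, 23 were at 0 in all 4. The guard cell list, matched by name, summed to 23.8 and 12.8 FPKM in the controls and 21.7 and 12.8 FPKM after irradiation. Of its 15 genes 13 were at 0 in all 4, among them laccase genes (OsLAC1, OsLAC10 and others) also listed for secondary walls. Only KAT3 and SLAC1 had reads, so the list says little about guard cells. KAT3 stood at 19.4 and 12.8 FPKM in the controls and 12.2 and 4.21 FPKM after irradiation.

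A value of 0 was common even for well covered genes. Of the 12866 genes with at least 100 reads in DJ control replicate 1, 369 (2.87%) were at 0 in DJ control replicate 2, and in the other direction 142 of 12686 (1.12%) were. Between the irradiated libraries the same count was 448 of 13772 genes (3.25%) and 356 of 13109 (2.72%). Between an untreated and an irradiated library it ran from 1.52% to 6.397%. Few genes had low counts: 1.22% to 2.57% of the genes with reads in a DJ library had 1 to 10 reads there. The cause of these zeros was not tested. Genes with reads in all 4 libraries are therefore described apart from genes at 0 in a whole group.

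Of 23063 genes with at least 1 FPKM in 2 of the 10 libraries, 237 (1.03%) differed between irradiated and untreated DJ leaves at an adjusted p under 0.05 (limma, Benjamini-Hochberg adjustment over all genes), 111 higher (0.481%) and 126 lower (0.546%). Only these are called changed below. Of the 237, 69 had reads in all 4 DJ libraries (39 rose and 30 fell, 0.476% of 14506 such genes), 70 were at 0 in both controls and 86 at 0 in both irradiated libraries. The 70 and 86 made up 16.9% and 17.6% of the 413 and 488 genes with that pattern that passed the filter. Such genes could pass the filter only through libraries with reads. A group at 0 in both libraries also adds no spread to the fit. The p-values of these genes thus rest on the spread of the other groups. Some, such as OsFLA9 and Os03g0165375, were at 0 in every ku70 library as well. A further 12 called genes had another pattern of zeros. Of the tested genes, 1233 were at 0 in all 4 DJ libraries and passed the filter only through the other lines. None of these was called. The called genes with reads in all 4 libraries had a median of 1270 reads in a library, and those at 0 in a group had medians of 62 and 59.5 reads where detected. Of the 237, 36 overlap another listed gene, 30 of them one on the other strand, and no source used here says whether reads were counted by strand. Unadjusted p was under 0.05 for 3017 genes (13.1%). The number of calls depended on the other libraries of the fit: it was 0 with only the 4 DJ libraries and 0 without ku70 40 Gy replicate 1 or without ku70 40 Gy replicate 2. It was 147 without ku70 control replicate 1, 137 without ku70 control replicate 2, and 3 when only genes with reads in all 4 DJ libraries were tested. When at least 1 FPKM in 2 DJ libraries was also required, all 237 were still tested but only 2 genes were called. The untreated and irradiated libraries lie in separate deposited tables, and whether these were scaled together is not stated. The split into higher and lower genes moved with the scaling: it was 208 to 127 with plain library sizes and 44 to 29 after quantile normalisation. With limma-voom on the recovered reads, which also changes the weights and the handling of zeros, it was 24 to 57. The direction of each of the 237 was the same in every setting that tested it. This was largely set in advance, since the settings draw on the DJ values that picked the genes. The 70 and 86 genes at 0 in a group could hardly turn. Which genes pass is less sure than the values given per library, and an exact permutation test of 2 against 2 libraries cannot go below p = 0.333.

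**Figure D1:**
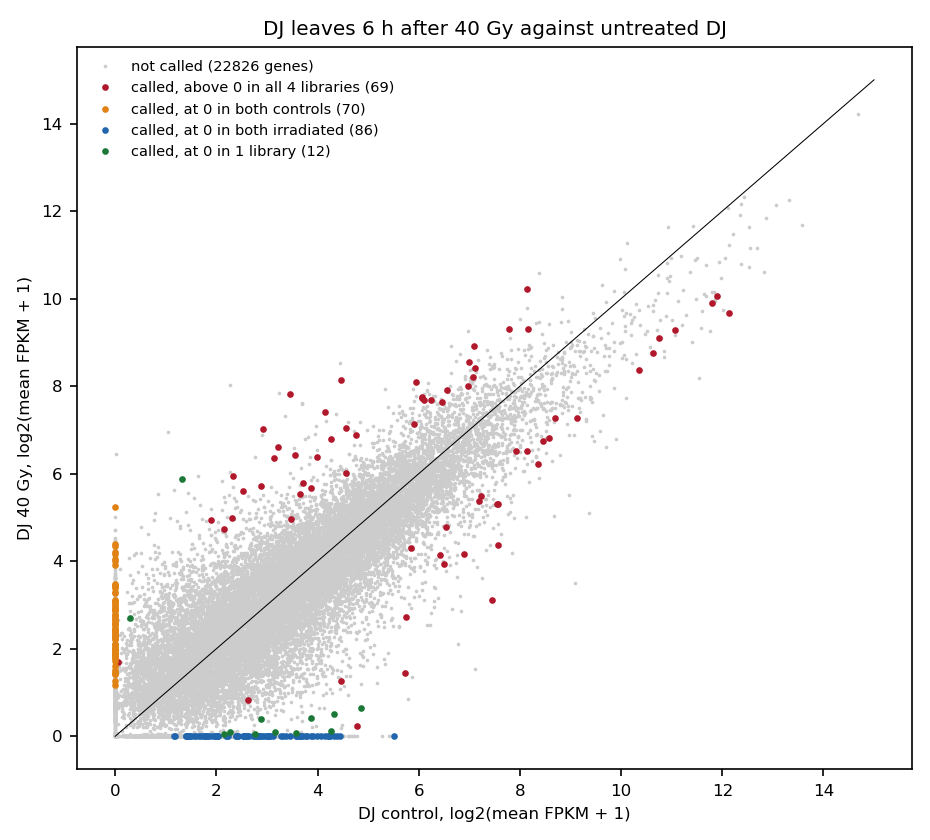
Mean FPKM + 1 of each of 23063 tested genes in 2 untreated (x axis) and 2 irradiated (y axis) DJ libraries, both on a log2 scale, with the line of equal values; coloured points are the 237 called genes by where reads were seen. The 70 and 86 called genes at 0 in a group lie on the axes, and the 69 with reads in all 4 libraries include highly expressed genes below the line.

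Among genes that act on damaged DNA, 1 gene each for nucleotide supply, poly(ADP-ribosyl)ation and end processing rose. ST1 (Os06g0257450, chromosome 6, 8230555 to 8232480, coordinates as deposited, on a build that no source used here names) encodes the small chain of the reductase that supplies deoxynucleotides. It stood at 3.00 and 0 FPKM in the controls and 48.9 and 66.2 FPKM after irradiation (log2 difference 4.86 ± 0.65 (SE), adjusted p = 0.0496). Both irradiated libraries lay above both controls, 1 of which was at 0. PARP2A (Os01g0351200, chromosome 1, 14047844 to 14054909) encodes a polymerase that marks broken DNA with poly(ADP-ribose), and stood at 0 and 0 FPKM in the controls and 10.6 and 9.19 FPKM after irradiation (adjusted p = 0.0371). The gene Os01g0881400 (chromosome 1, 38257939 to 38261435), annotated as protein Artemis, a nuclease that in mammals trims DNA ends before joining, stood at 5.19 and 2.69 FPKM in the controls and 27.3 and 33.8 FPKM after irradiation (log2 difference 2.71 ± 0.31 (SE), adjusted p = 0.0384). It was the only one of these 3 with reads in all 4 libraries, 7.75 times higher by the group means and with no overlap. ST1 and PARP2A were each called in 7 of the 20 settings that tested them, and the Artemis gene in 9 of 21.

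The other ribonucleotide reductase and poly(ADP-ribose) polymerase genes did not pass. RNRS2, a further small subunit, stood at 0 and 0 FPKM in the controls and 0 and 1.34 FPKM after irradiation (adjusted p = 0.688). V3, the large subunit, stood at 0.657 and 0 FPKM in the controls and 1.70 and 0.922 FPKM after irradiation (adjusted p = 0.6002). PARP1 stood at 2.55 and 5.40 FPKM in the controls and 2.87 and 2.31 FPKM after irradiation (adjusted p = 0.934). Its groups overlapped, as did those of PARP2B, at 1.32 and 3.53 FPKM in the controls and 3.30 and 0 FPKM after irradiation (adjusted p = 0.808). The gene annotated as poly(ADP-ribose) polymerase 3 (Os02g0530600) was at 1.40 and 2.46 FPKM in the controls and 0.335 and 0 FPKM after irradiation (adjusted p = 0.571).

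None of 6 tested damage checkpoint genes passed, where 1.03% of all genes did. All 6 differences were above 0 and the median was 1.52 on the log2 scale, against -0.0036 over all genes. That median depended on how zeros and low values were treated: it was 3.64 with a pseudocount of 0.1 FPKM, 2.55 with a filter at 5 FPKM and 5.47 with limma-voom. Only 1 member, ATM, had reads in all 4 libraries, with a difference of 0.20. ONAC050, a NAC factor annotated as NAC domain-containing protein 8, stood at 0 and 0 FPKM in the controls and 7.14 and 13.0 FPKM after irradiation (log2 difference 3.42 ± 0.47 (SE), adjusted p = 0.0510). SMR1, an inhibitor of cyclin-dependent kinases, stood at 0 and 0 FPKM in the controls and 5.02 and 4.69 FPKM after irradiation (adjusted p = 0.584). The checkpoint gene RAD17 (Os03g0242100) stood at 1.78 and 0 FPKM in the controls and 4.51 and 3.71 FPKM after irradiation (adjusted p = 0.413). These 3 and ATR (Os06g0724700), at 0 and 0 FPKM in the controls and 3.51 and 0.616 FPKM after irradiation (adjusted p = 0.613), made up the 4 of 6 members whose irradiated libraries both lay above both controls, a pattern that 17.3% of all tested genes showed. OsRAD1, of the checkpoint clamp, was at 0 and 0 FPKM in the controls and 2.37 and 0 FPKM after irradiation (adjusted p = 0.640). ATM (Os01g0106700) was at 0.932 and 3.27 FPKM in the controls and 1.72 and 2.98 FPKM after irradiation (adjusted p = 0.953), with overlapping groups. The fit's spread also came from the ku70 libraries, where SMR1 stood at 0 and 0 FPKM in its untreated libraries and 0 and 23.4 FPKM in its irradiated ones.

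No gene of homologous recombination (18 tested) or end joining (8 tested) passed. Of all tested genes 1.03% did, a share too small to expect a call in lists of this size. The recombinase gene RAD51A2, whose product pairs broken ends with an intact copy, stood at 0 and 0 FPKM in the controls and 4.97 and 9.36 FPKM after irradiation (log2 difference 2.97 ± 0.58 (SE), adjusted p = 0.108). RAD51A1 was at 0 in all 4 libraries, and so was OsRAD54. RAD51C stood at 4.24 and 5.90 FPKM in the controls and 1.64 and 0 FPKM after irradiation. RAD51D stood at 1.88 and 0 FPKM in the controls and 0 and 2.44 FPKM after irradiation. OsRAD51B stood at 0.507 and 0 FPKM in the controls and 3.44 and 0 FPKM after irradiation. Their adjusted p-values were 0.260, 1.000 and 0.841 (limma). RAD51D and OsRAD51B had reads in 1 library of a group and none in the other. The sensor genes MRE11, Rad50 and NBS1 had adjusted p-values of 0.968, 0.613 and 0.935 (limma). BRCA1 homologue OsBRCA1 was at 0.256 and 1.61 FPKM in the controls and 1.11 and 0 FPKM after irradiation. The recombinase gene RILIM15B, annotated as a DMC1 homologue, stood at 7.34 and 5.28 FPKM in the controls and 18.0 and 13.5 FPKM after irradiation (adjusted p = 0.388).

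In end joining, OsKu80, of the complex that binds DNA ends, stood at 20.5 and 13.4 FPKM in the controls and 13.2 and 13.6 FPKM after irradiation (adjusted p = 0.794). Its partner OsKu70 stood at 5.31 and 0.319 FPKM in the controls and 2.94 and 2.76 FPKM after irradiation (adjusted p = 0.921), with the controls on either side of the irradiated libraries. The ligase gene OsLig4, which seals the ends, was at 25.8 and 18.3 FPKM in the controls and 46.5 and 29.0 FPKM after irradiation (adjusted p = 0.535). None of 36 excision and mismatch repair genes, 34 replication and licensing genes and 50 histone genes passed, with median log2 differences of -0.0123, 0.23 and 0.06. The 1.03% called among all genes is too small a share to expect a call in any of these lists.

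**Figure D2:**
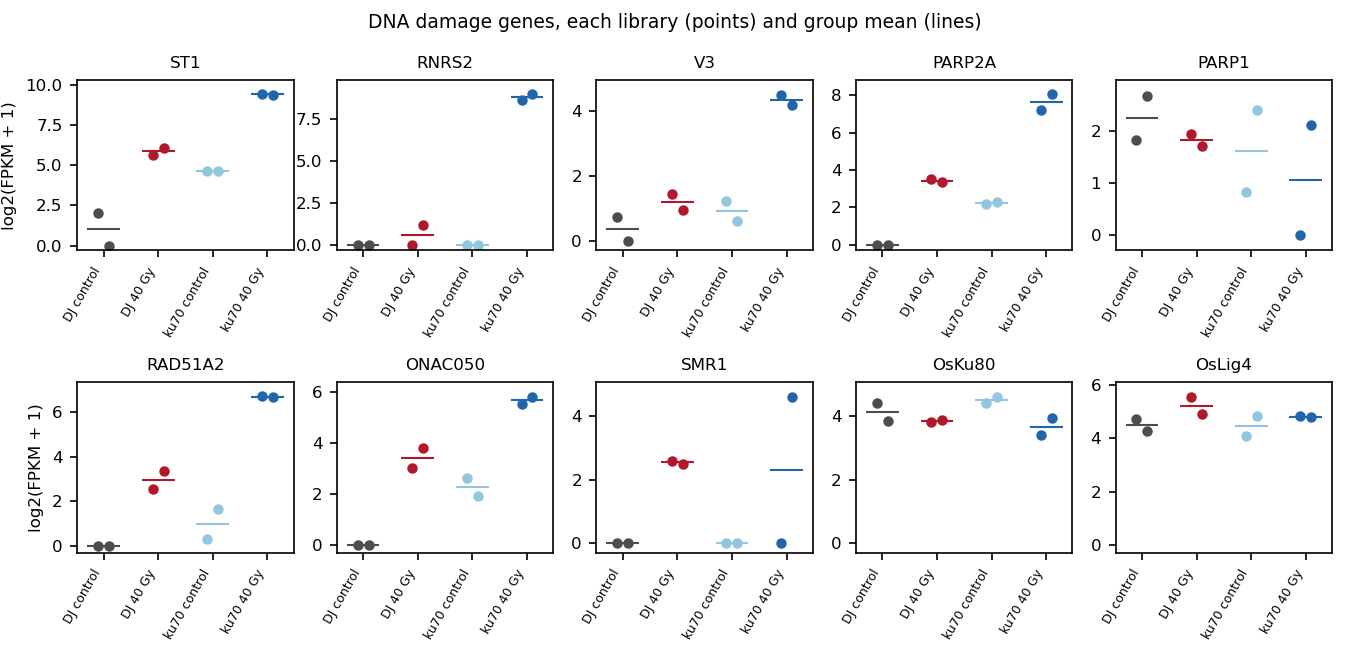
Level of 10 DNA damage genes on log2(FPKM + 1) in each library of DJ and of the line labelled ku70 (points) with the group mean on that scale (lines, n = 2 libraries each). ST1, PARP2A, RAD51A2, ONAC050 and SMR1 are at or near 0 in the DJ controls and above 0 in both irradiated DJ libraries, while RNRS2 reaches 403 and 515 FPKM in irradiated ku70 and at most 1.34 FPKM in irradiated DJ.

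The largest rises among described genes with reads in all 4 libraries reached into amino acid, gibberellin and lipid metabolism, and the Artemis gene was the only repair gene among them. Os02g0783625, annotated as an alpha-aminoadipic semialdehyde synthase, of lysine breakdown, stood at 3.77 and 4.27 FPKM in the controls and 64.6 and 56.6 FPKM after irradiation (log2 difference 3.62 ± 0.27 (SE), adjusted p = 0.0156). OsSGL, a gene named for stress tolerance and grain length, stood at 6.75 and 9.77 FPKM in the controls and 109.7 and 82.6 FPKM after irradiation (log2 difference 3.40 ± 0.26 (SE), adjusted p = 0.0164). It was among the 3 genes called when only genes with reads in all 4 libraries were tested. GA2OX3, a gibberellin 2-oxidase that inactivates the hormone, stood at 9.93 and 5.67 FPKM in the controls and 101 and 60.7 FPKM after irradiation (adjusted p = 0.0465).

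DIP3, a drought-induced gene for a xylanase inhibitor, stood at 13.3 and 20.0 FPKM in the controls and 223 and 114 FPKM after irradiation (adjusted p = 0.0428), with irradiated libraries that differed from each other by more than the controls did. BZIP50, a bZIP factor known in rice for the unfolded protein response of the endoplasmic reticulum, stood at 22.99 and 22.4 FPKM in the controls and 126 and 136 FPKM after irradiation (log2 difference 2.47 ± 0.17 (SE), adjusted p = 0.0156). In these values the 2 libraries of a group were close to each other and the groups far apart. OsGELP1, a GDSL esterase or lipase, stood at 10.6 and 11.0 FPKM in the controls and 99.4 and 71.6 FPKM after irradiation (adjusted p = 0.0246). Os05g0490800, an alpha subunit of the proteasome core that degrades ubiquitin-tagged proteins, stood at 15.5 and 21.01 FPKM in the controls and 140.0 and 79.9 FPKM after irradiation (adjusted p = 0.0465).

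The remaining members of the 12 largest rises were weakly expressed in untreated leaves. The zinc finger gene Os05g0444200 (WIP4) stood at 3.95 and 5.52 FPKM in the controls and 55.2 and 39.5 FPKM after irradiation. The chloroplast dihydrolipoyl dehydrogenase gene Os05g0156700 stood at 2.46 and 2.95 FPKM in the controls and 33.3 and 26.1 FPKM after irradiation. Os03g0411600, of unknown function, stood at 5.97 and 6.82 FPKM in the controls and 53.9 and 49.9 FPKM after irradiation. Os05g0194600, annotated as an enzyme that modifies adenosine in tRNA, stood at 3.49 and 3.39 FPKM in the controls and 28.4 and 22.7 FPKM after irradiation. Among the genes named for the largest changes, Os02g0783625, Os05g0567600 and CYP714B2 have an overlapping gene on the other strand. The log2 differences of the 4 genes ran from 2.57 to 3.07, with adjusted p-values (limma) of 0.0426, 0.0465, 0.0298 and 0.0465 in the order named.

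Os09g0272600 (chromosome 9, 5454054 to 5454902), a gene with no description in the files that was singled out after its values were seen, showed the largest rise of the 69 called genes with reads in all 4 libraries. It stood at 9.57 and 10.5 FPKM in the controls and 196 and 254 FPKM after irradiation, 22.5 times higher by the group means (log2 difference 4.35 ± 0.19 (SE), adjusted p = 0.0129). It was the only gene called when the replicate number was added to the fit as a block. In the libraries labelled ku70 it stood at 143 and 169 FPKM in its untreated libraries and 252 and 288 FPKM in its irradiated ones, so that its untreated level there lay between those of untreated and irradiated DJ. The ku70 response minus the DJ response was -3.55 ± 0.27 (SE), adjusted p = 0.0212. A second gene without a description, Os01g0644000, came next, at 10.4 and 2.78 FPKM in the controls and 132 and 125 FPKM after irradiation (log2 difference 4.31 ± 0.55 (SE), adjusted p = 0.0465).

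Among described genes with reads in all 4 libraries, the 12 largest falls included genes for transcription factors, a nitrate transporter and enzymes of the chloroplast. Os05g0567600, annotated as RADIALIS-like protein 3, of a small MYB-like family, stood at 150.2 and 199 FPKM in the controls and 3.95 and 11.4 FPKM after irradiation (log2 difference -4.47 ± 0.55 (SE), adjusted p = 0.0441). NRT2.4, a high-affinity nitrate transporter gene and the only called member of 30 nitrogen assimilation genes, stood at 70.3 and 33.9 FPKM in the controls and 1.81 and 1.62 FPKM after irradiation (log2 difference -4.20 ± 0.48 (SE), adjusted p = 0.0372). Both irradiated libraries were far below both controls in these genes.

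Both called genes of 91 MYB factors fell. Os05g0488600, annotated as Myb-related protein 1 (PHR1-LIKE 10), stood at 208 and 167 FPKM in the controls and 11.5 and 28.0 FPKM after irradiation (adjusted p = 0.0477). OsTCL2, a homologue of Arabidopsis TRICHOMELESS genes that repress hair formation, stood at 18.0 and 24.1 FPKM in the controls and 1.09 and 1.73 FPKM after irradiation (log2 difference -3.19 ± 0.31 (SE), adjusted p = 0.0283). CYP714B2, annotated as a gibberellin 13-oxidase, stood at 56.9 and 48.9 FPKM in the controls and 7.44 and 3.71 FPKM after irradiation (adjusted p = 0.0465). With GA2OX3, 2 genes of gibberellin metabolism were thus among the largest changes, in opposite directions.

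Chloroplast carbon metabolism was represented by BETACA1, the chloroplast carbonic anhydrase that interconverts carbon dioxide and bicarbonate, at 4392 and 4555 FPKM in the controls and 565 and 1055 FPKM after irradiation (adjusted p = 0.0495). OsSTA246, a chloroplast beta-amylase of starch breakdown, stood at 91.98 and 145 FPKM in the controls and 17.1 and 17.1 FPKM after irradiation (log2 difference -2.69 ± 0.25 (SE), adjusted p = 0.0246), and the irradiated libraries were alike to within the first decimal. Of 61 starch and sucrose genes it was the only one called.

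The other 5 of the 12 largest falls had no overlap either. The class III peroxidase gene prx29 stood at 105.6 and 64.1 FPKM in the controls and 16.0 and 17.2 FPKM after irradiation. The osmotin-like gene Os12g0569500 stood at 161 and 211 FPKM in the controls and 37.4 and 39.5 FPKM after irradiation. The metal-nicotianamine transporter gene YSL16 stood at 228 and 146 FPKM in the controls and 43.0 and 33.8 FPKM after irradiation. Os09g0433800, annotated as MARD1, a zinc finger protein, stood at 394 and 259 FPKM in the controls and 69.8 and 77.5 FPKM after irradiation. In each of these genes both irradiated libraries lay below both controls. PsbP, of the oxygen-evolving complex of photosystem II, completed the 12 at 1363 and 1256 FPKM in the controls and 284 and 373 FPKM after irradiation. Their log2 differences ran from -2.25 to -2.003, with adjusted p-values (limma) between 0.0357 and 0.0496.

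**Figure D3:**
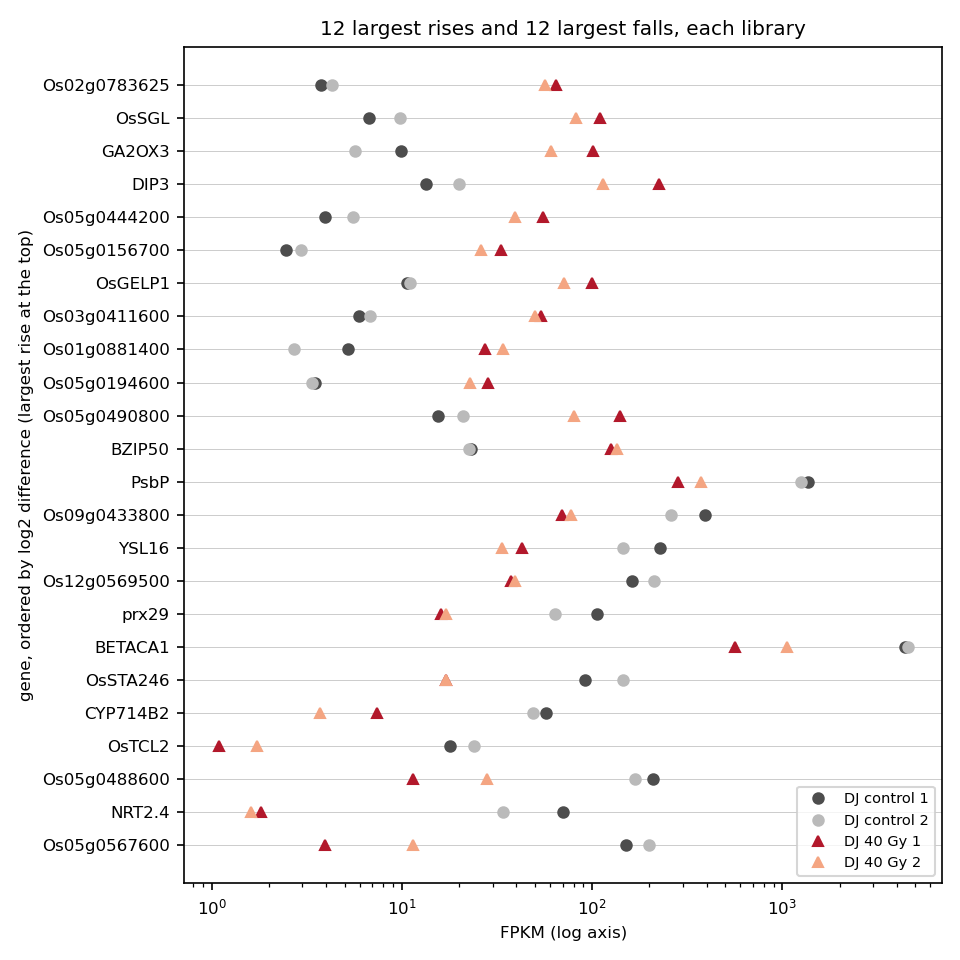
FPKM (log axis) of the 12 most increased and the 12 most decreased of those with a description and reads in all 4 DJ libraries, with 1 point for each library (circles untreated, triangles irradiated). In each gene both irradiated libraries lie on 1 side of both controls, as the choice of these genes requires, from Os02g0783625 at the top (3.77 and 4.27 FPKM against 64.6 and 56.6 FPKM) to Os05g0567600 at the bottom (150.2 and 199 FPKM against 3.95 and 11.4 FPKM).

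Nuclear photosynthesis genes lay lower as groups after irradiation, while few single members passed the test. The 20 tested light-harvesting genes, whose proteins bind chlorophyll around the photosystems, had a median log2 difference of -1.59. Of these, 17 of 20 had both irradiated libraries below both controls, a pattern found in 21% of all tested genes. Among all genes with reads in all 4 libraries, as 18 of the 20 had, that share was 26.0%. After quantile normalisation the median was -0.93. Summed over the list, they stood at 39314 and 31478 FPKM in the controls and 15134 and 11958 FPKM in the irradiated libraries. 1 member fell, ASCAB9-A, the light-harvesting protein CP26 of photosystem II, at 4351 and 3262 FPKM in the controls and 1109 and 1025 FPKM after irradiation (log2 difference -1.82 ± 0.23 (SE), adjusted p = 0.0449). 1 member rose, Os03g0165375, listed at 0 in both controls and described with the genes of that kind.

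Of 64 photosystem and electron transport genes 5 fell (against 0.546% of all genes) and none rose, with a median of -1.18 and 42 of 64 below both controls. PSAH, a subunit of photosystem I that docks the mobile antenna, stood at 4057 and 3082 FPKM in the controls and 981 and 942 FPKM after irradiation (log2 difference -1.88 ± 0.23 (SE), adjusted p = 0.0447). PsaN, on the lumen side of photosystem I, stood at 2128 and 2136 FPKM in the controls and 534 and 709 FPKM after irradiation (adjusted p = 0.0371). The thylakoid lumen protein gene Os10g0502000 stood at 22.9 and 33.3 FPKM in the controls and 0 and 1.15 FPKM after irradiation (adjusted p = 0.0362). The other members were PsbP and Os03g0765900, annotated as the PetM subunit of cytochrome b6f. The latter stood at 1596 and 1556 FPKM in the controls and 373 and 495 FPKM after irradiation (adjusted p = 0.0465). The list summed to 56518 and 55406 FPKM in the controls and 23259 and 19628 FPKM in the irradiated libraries.

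Of 27 Calvin cycle genes 2 fell. The chloroplast glyceraldehyde-3-phosphate dehydrogenase gene Os04g0459500, which reduces the first product of carbon fixation to sugar phosphate, stood at 1786 and 1649.5 FPKM in the controls and 482 and 620.5 FPKM after irradiation (log2 difference -1.65 ± 0.21 (SE), adjusted p = 0.0465). A Rubisco small subunit gene (Os12g0292400) stood at 546 and 569 FPKM in the controls and 145 and 164 FPKM after irradiation (adjusted p = 0.0156). The small subunit is encoded by near-identical copies, so reads may have been split between them, and Os12g0292301 overlaps this copy on the other strand. The list had a median of -0.95, with 19 of 27 below both controls, and summed to 23741 and 43375 FPKM in the controls and 10731 and 12135 FPKM in the irradiated libraries.

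In chlorophyll synthesis 1 of 20 genes fell, OsCRD1, a cyclase that closes the fifth ring of chlorophyll, at 241 and 325 FPKM in the controls and 83.6 and 98.5 FPKM after irradiation (log2 difference -1.61 ± 0.20 (SE), adjusted p = 0.0441). The list's median was -0.40. Photorespiration, which recycles the product of Rubisco's oxygenase reaction, had a median of -0.56 over 22 genes, and its only called member rose. That was OsSHM3, annotated after Arabidopsis SHMT4, a cytosolic serine hydroxymethyltransferase, whereas photorespiration uses a mitochondrial form. It stood at 10.5 and 9.77 FPKM in the controls and 28.2 and 32.6 FPKM after irradiation (adjusted p = 0.0465). With plain library sizes the medians of the 5 lists from light harvesting to photorespiration were -1.24, -0.91, -0.60, -0.09 and -0.23, against 0.14 for all genes. Nuclear genes for chloroplast ribosomes had no call among 43, where 1.03% of all genes were called. They had a median of -0.29, which turned to 0.046 when FPKM was recomputed with plain library sizes. It was -0.46 without DJ control replicate 1, -0.14 without DJ control replicate 2 and -0.11 without DJ 40 Gy replicate 2. The photorespiration median was -0.37 without DJ 40 Gy replicate 1. Of 22 tested chloroplast-encoded genes petD, of the cytochrome b6f complex, fell, at 3.37 and 4.30 FPKM in the controls and 0 and 0.156 FPKM after irradiation (adjusted p = 0.0156). The sum over chloroplast-encoded genes differed widely between replicates, at 384 and 2110 FPKM in the controls and 1217 and 716 FPKM in the irradiated libraries. The mesophyll markers, most of which are members of these lists, were also lower in summed level, and their part in these differences was not tested. In bulk leaves fewer cells of a type and less RNA per cell cannot be told apart.

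Genes of protein synthesis lay the other way. Of 210 cytosolic ribosomal protein genes 10 rose (4.76% against 0.481% of all genes) and none fell, the median log2 difference was 0.99, and 161 of 210 had both irradiated libraries above both controls, against 17.3% of all tested genes. Among all genes with reads in all 4 libraries, as 184 of the 210 had, that share was 20.0%. Summed over the list the ribosomal protein genes stood at 16076 and 14646 FPKM in the controls and 31709 and 29616 FPKM in the irradiated libraries. OsRPS26, of the small subunit, stood at 72.1 and 59.5 FPKM in the controls and 232 and 189 FPKM after irradiation (log2 difference 1.66 ± 0.19 (SE), adjusted p = 0.0389). RPL39C, of the large subunit, stood at 265 and 304 FPKM in the controls and 618 and 654 FPKM after irradiation (log2 difference 1.16 ± 0.14 (SE), adjusted p = 0.0444). RPL5B, whose protein carries 5S ribosomal RNA, stood at 143 and 123 FPKM in the controls and 285 and 303 FPKM after irradiation (adjusted p = 0.0465). Ub-CEP52-2, a fusion of ubiquitin with a ribosomal protein, stood at 103 and 83.1 FPKM in the controls and 244 and 237 FPKM after irradiation (adjusted p = 0.0396). These genes have close paralogues, so reads may have been shared among copies.

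Ribosome biogenesis, proteasome and translation factor genes lay in the same direction with fewer calls. No gene of 44 in ribosome biogenesis passed, where 1.03% of all genes did. The list had a median of 0.77 and 23 of 44 above both controls. It summed to 455 and 590.0 FPKM in the controls and 919 and 832 FPKM in the irradiated libraries. Of 47 proteasome genes 1 rose, the alpha subunit named above, with a median of 0.49 and 25 of 47 above both controls. Of 58 translation factor genes 1 rose, Os02g0220500, an elongation factor 1-gamma gene, at 21.6 and 23.7 FPKM in the controls and 70.9 and 56.8 FPKM after irradiation (log2 difference 1.45 ± 0.18 (SE), adjusted p = 0.0465), with a median of 0.36. That median was 0.20 without DJ control replicate 2. With plain library sizes the medians of translation factors and proteasome genes were 0.68 and 0.83. The median of all genes was then 0.14 rather than -0.0036 on the log2 scale, and the median of each of these 3 lists and of the cytosolic ribosome stayed above it.

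**Figure D4:**
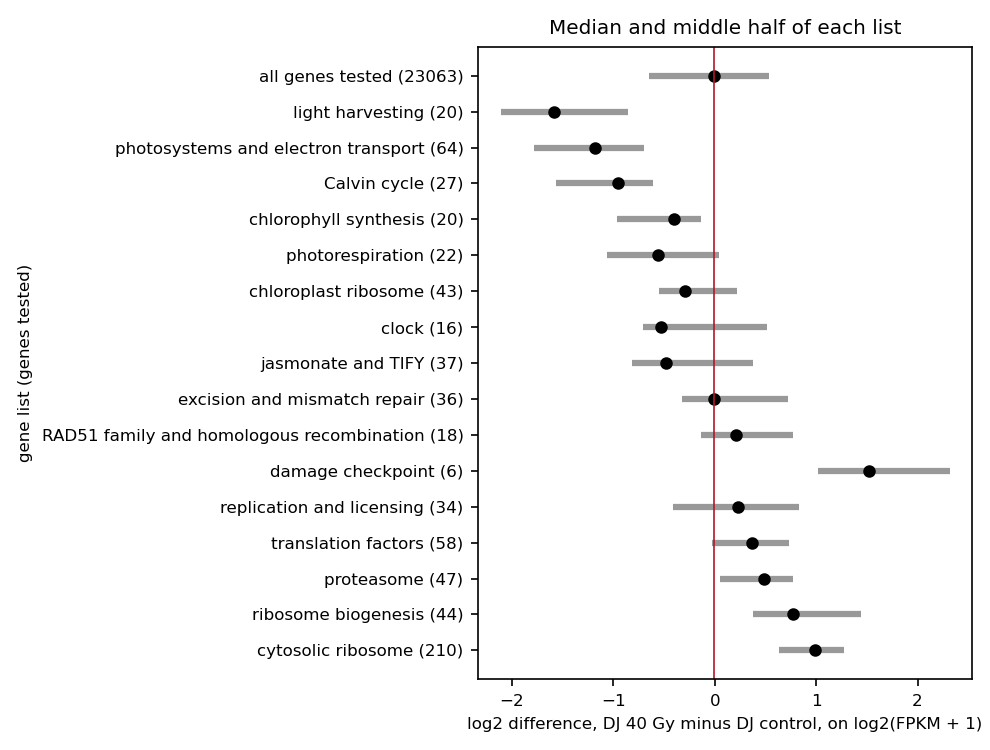
Median (points) and interquartile range (bars) of the log2 difference on log2(FPKM + 1) between irradiated and untreated DJ leaves for 16 gene lists and all 23063 tested genes, with the median of all genes as a vertical line. Light harvesting (-1.59) and the cytosolic ribosome (0.99) lie on opposite sides of the line.

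The stress and defence lists with any call held 1 each, apart from glutathione S-transferases with 1 in each direction. Of 52 glutathione S-transferase genes, whose enzymes couple glutathione to toxic compounds, OsGSTU14 fell, at 9.05 and 12.9 FPKM in the controls and 0 and 0 FPKM after irradiation (adjusted p = 0.0144). OsGSTU36 rose from 0 in both controls. Of 69 WRKY factors OsWRKY60 rose, at 0 and 0 FPKM in the controls and 4.80 and 4.21 FPKM after irradiation (adjusted p = 0.0465). Of 64 chitinase and pathogenesis-related genes a chitinase gene rose. AOX1B, a mitochondrial alternative oxidase that bypasses part of the respiratory chain, stood at 0 and 0 FPKM in the controls and 8.72 and 6.70 FPKM after irradiation (adjusted p = 0.0371), the only call among 47 genes of mitochondrial respiration. OsLTP1.4, of 40 lipid transfer protein genes, stood at 135 and 137 FPKM in the controls and 401 and 568 FPKM after irradiation (log2 difference 1.80 ± 0.23 (SE), adjusted p = 0.0465).

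No member passed among 69 heat shock genes, 100 antioxidant enzyme genes, 66 NAC factors, 77 ERF factors, 88 protein phosphatase 2C genes, 37 jasmonate and TIFY genes, 41 auxin response genes and 16 clock genes. The jasmonate list had a median of -0.48, which was -0.32 without DJ control replicate 1, -0.31 without DJ 40 Gy replicate 1, -0.27 with plain library sizes and -0.75 with limma-voom. The clock list had a median of -0.53, which was -0.30 without DJ control replicate 2 and -0.19 with plain library sizes. The share of members called was thus 0 where 1.03% of all genes were called, which in lists of 16 to 100 genes amounts to about 1 gene or none.

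Wall and vascular genes were called only as falls, each with a 0 in at least 1 irradiated library. Of 27 tested genes of secondary walls and vascular cells 3 fell (against 0.546% of all genes). Of all 27 differences 11 were above 0, and 4 members had both irradiated libraries above both controls and 9 below, none of the 4 called. OsFLA4, a fasciclin-like arabinogalactan protein, stood at 20.99 and 15.3 FPKM in the controls and 0 and 0.191 FPKM after irradiation (adjusted p = 0.0426). The laccase gene OsLAC24 stood at 13.7 and 24.4 FPKM in the controls and 0 and 0.863 FPKM after irradiation (adjusted p = 0.0355). OsFLA9 stood at 6.66 and 5.59 FPKM in the controls and 0 and 0 FPKM after irradiation (adjusted p = 0.0130). The 75 listed genes, mostly FLA and laccase genes matched by name, summed to 709 and 467 FPKM in the controls and 462 and 416 FPKM in the irradiated libraries. Of the 75, 42 were at 0 in all 4 libraries. OsCesA4 stood at 0 and 0 FPKM in the controls and 2.32 and 1.89 FPKM after irradiation. OsIRX10 stood at 6.36 and 0 FPKM in the controls and 10.3 and 13.3 FPKM after irradiation. OsIRX9, OsIRX9L and OsIRX14 had overlapping groups. Of 52 cell wall enzyme genes the expansin OsEXPB2, which loosens walls, stood at 4.01 and 7.81 FPKM in the controls and 0 and 0 FPKM after irradiation (adjusted p = 0.0350). OsXTH2, which cuts and rejoins xyloglucan, stood at 3.43 and 3.86 FPKM in the controls and 0 and 0 FPKM after irradiation (adjusted p = 0.0156). 4CL2, of 68 phenylpropanoid genes, stood at 7.91 and 4.90 FPKM in the controls and 0 and 0.625 FPKM after irradiation (adjusted p = 0.0481), with a neighbour on the other strand (Os02g0697450). OsTIP4, a tonoplast aquaporin gene, rose among 28 aquaporin genes, at 0 and 0 FPKM in the controls and 8.29 and 4.34 FPKM after irradiation (adjusted p = 0.0361). The part of tissue makeup in these differences was not tested.

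Genes listed at 0 in both controls and above 0 in both irradiated libraries reached 1.24 to 36.7 FPKM in the irradiated mean among the 70 called, and 12 of them were listed without a known locus. No fold change is given for them. The 6 described genes with the highest irradiated level included a chitinase 4 gene (Os04g0493600), which cuts fungal wall chitin, with 216 and 169 reads in the irradiated libraries, at 19.8 and 20.3 FPKM. A count of 0 allows up to 0.391 and 0.368 FPKM in the controls (3 reads each, counting error only). A gene for ribosomal protein L28-1 (Os01g0706500) stood at 0 and 0 FPKM in the controls and 19.0 and 15.9 FPKM after irradiation (adjusted p = 0.0190). The chlorophyll a-b binding protein gene Os03g0165375 stood at 0 and 0 FPKM in the controls and 19.0 and 11.0 FPKM after irradiation (adjusted p = 0.0156), from 143 and 63 reads, and it belongs to a family of close copies, so reads may have been shared. FAO2 (Os10g0474900), a long-chain alcohol oxidase gene, stood at 0 and 0 FPKM in the controls and 13.7 and 14.4 FPKM after irradiation (adjusted p = 0.0465). Os08g0509500, with a domain of unknown function, stood at 0 and 0 FPKM in the controls and 9.63 and 9.97 FPKM after irradiation (adjusted p = 0.0328). PARP2A was the sixth.

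In the opposite pattern 86 called genes had control means of 1.23 to 44.3 FPKM and 0 in both irradiated libraries, and 14 of them were listed without a known locus. Described genes with the highest control level began with a glutamate transfer RNA gene, at 23.4 and 65.3 FPKM in the controls and 0 and 0 FPKM after irradiation (adjusted p = 0.0357), a gene of 73 bases. OsIDD5, a zinc finger factor of the indeterminate domain family, stood at 18.0 and 23.5 FPKM in the controls and 0 and 0 FPKM after irradiation (adjusted p = 0.0326). The cytochrome P450 gene Os10g0144700 (76C2) stood at 23.8 and 15.8 FPKM in the controls and 0 and 0 FPKM after irradiation (adjusted p = 0.0246). Os11g0644500, described as a transferase, and Os08g0390200, a homologue of the ethylene-forming oxidase, were also among them. They stood at 22.0 and 13.7 FPKM and at 17.3 and 12.4 FPKM in the controls.

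The line labelled ku70, which shares no library with DJ, was set beside these values. Its label names the KU70 gene, but OsKu70 stood at 24.7 and 37.8 FPKM in its untreated libraries and 7.85 and 15.8 FPKM in its irradiated ones there, against 5.31 and 0.319 FPKM in the DJ controls, so the label is used here as a name only. In it 2287 genes (9.92%) passed, 654 of them higher (2.84%) and 1633 lower (7.08%). It was 484 without ku70 control replicate 1 and 443 without ku70 control replicate 2. Of the 111 genes that rose in DJ, 40 (36.0%) were also called higher in ku70, which is 6.12% of the ku70 rises, and 10 were called lower. Of the 126 that fell, 61 (48.4%) were called lower in ku70, which is 3.74% of the ku70 falls, and 4 were called higher. Called or not, 52 of the 111 and 75 of the 126 had the same sign in ku70. Their median log2 differences there were 0 and -0.97, against 2.38 and -2.54 in DJ. Both comparisons use the same estimate of the spread for each gene, so calls in the 2 lines are not independent.

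The difference between the responses was itself called for 266 genes (1.15%), 75 of them among the 237. For RNRS2 the ku70 response exceeded that of DJ by 8.22 ± 0.73 (SE), adjusted p = 0.0213, with ku70 at 0 and 0 FPKM in its untreated libraries and 403 and 515 FPKM in its irradiated ones. PARP2A stood at 3.56 and 3.81 FPKM in its untreated libraries and 148 and 270.3 FPKM in its irradiated ones in ku70 (difference of the responses 1.99 ± 0.55 (SE), adjusted p = 0.183). RAD51A2 stood at 0.259 and 2.16 FPKM in its untreated libraries and 104 and 101 FPKM in its irradiated ones (2.72 ± 0.82 (SE), adjusted p = 0.212). ST1 stood at 24.4 and 24.0 FPKM in its untreated libraries and 697 and 661 FPKM in its irradiated ones (-0.10 ± 0.91 (SE), adjusted p = 0.992). For these 3 the levels in ku70 were higher, both untreated and irradiated, but the responses were not called different. OsTCL2, which fell in DJ, stood at 3.68 and 3.501 FPKM in its untreated libraries and 18.8 and 16.4 FPKM in its irradiated ones in ku70 and was called different (5.21 ± 0.44 (SE), adjusted p = 0.0212).

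**Figure D5:**
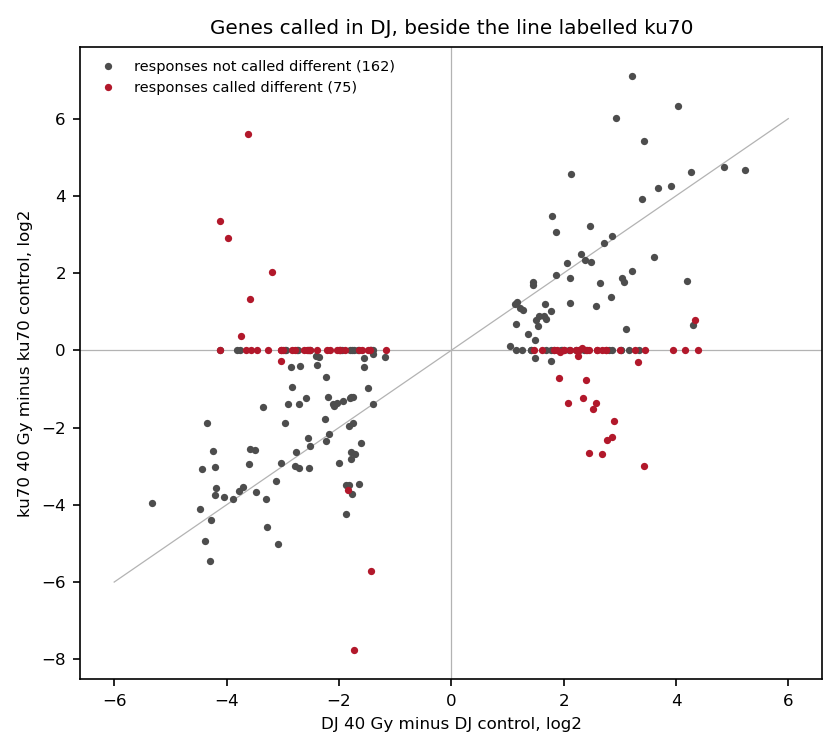
Log2 difference of the 237 genes called in DJ (x axis) and the log2 difference of the same genes in the line labelled ku70 (y axis), each from 2 irradiated and 2 untreated libraries, with the line of equal responses. The 75 genes whose responses were called different (red) lie away from the line of equal responses, and the x values carry the choice of the genes.

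The authors' deposited table of DJ genes at 40 Gy listed 775 genes, 347 higher and 428 lower, with the authors' adjusted p-values up to 0.0496. All 775 passed the filter and had the same direction here, and 125 of them were called, which is 16.1% of the authors' list and 52.7% of the calls. Of the genes in the authors' deposited table, 451 (58.2%) had reads in all 4 DJ libraries, with a median absolute log2 fold change of 2.04. A further 131 genes were at 0 in both controls and 149 at 0 in both irradiated libraries, with medians of 9.19 and 9.23 in the authors' deposited table. Absolute log2 values over 8 were given there for 292 genes, the largest being 23.3. Both sets use the same 4 DJ libraries, and the calls made here also use the ku70 libraries for the spread.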

How the data were processed

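Total RNA of leaves was made into libraries with a directional kit, per the labels' protocols. The authors deposited 1 value per gene and library, whose unit no header names. Multiplied by the deposited gene length, 100% of the DJ values were whole multiples of 1 step within 0.01, so they were taken as FPKM with a library size scaled by the authors, and read counts were recovered from them. No source used here names the aligner, counter, annotation or genome build. A deposited table gives the authors' log2 fold changes and adjusted p-values for DJ, per the file headers, and was used for description only.

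The untreated and irradiated tables were joined by gene identifier. Values were taken as log2(FPKM + 1), so fold changes of low genes are understated. Genes with at least 1 FPKM in 2 of 10 libraries were kept (23063 of 40718). A linear model with 1 mean per group was fitted with limma 3.58.1 (intensity trend, R 4.3.3) on all 10 libraries, with 4 residual degrees of freedom, all from DJ and ku70, since each TOP6A3-OE1 group has 1 library. P-values are two-sided and Benjamini-Hochberg adjusted over all kept genes, with 0.05 as the threshold. Adjusted p-values in the text are of this test, except those credited to the authors' deposited table. The labels do not call the libraries separate plants, and the p-values therefore reflect library-to-library spread, which may be technical. Groups at 0 in both libraries add no spread. The script was tested on simulated data, with changes set only in genes expressed in the DJ controls. That test does not cover calls of genes at 0 in a group. The replicate correlations and list medians are descriptions without a test.

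Genes named were the 12 largest called rises and 12 largest falls among described genes with reads in all 4 DJ libraries, no overlap between groups and a higher mean of at least 5 FPKM, the 6 highest called genes from 0 and to 0, up to 3 called members of each of 45 lists, and DNA damage genes whether called or not. A few further called members of lists (RPL39C, RPL5B, Ub-CEP52-2, PsaN and Os03g0765900), 2 genes without a description, and genes of end joining were named after their values were seen. The lists, members and tests were chosen with earlier results of these data known. Recovered reads were 12669270 and 13772220 in the DJ controls and 14532121 and 10812846 after irradiation, and 1 read was worth less for longer genes. Alternatives covered the pseudocount, filters, scaling, library weights, a replicate block, the libraries fitted and leaving out each replicate; 2 of them were added after seeing the data. Figures were drawn with matplotlib 3.10.9. 1 gene that the naming rule picked is not reported here. No sequences are printed.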

Additional observations from a re-analysis of the deposited data

Results flagged for a closer look

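For 13 named genes the response of the line labelled ku70 (irradiated minus untreated, 2 libraries each) differed from that of DJ in the test of the difference itself (limma, adjusted over 23063 genes). The differences below are ku70 minus DJ on log2(FPKM + 1), with adjusted p-values between 0.0210 and 0.0298.

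Among genes that rose in DJ the difference was -4.39 for the chitinase gene Os04g0493600, -3.95 for the chlorophyll a-b binding gene Os03g0165375, -6.42 for Os08g0509500 and -5.13 for OsWRKY60. In ku70 Os04g0493600 stood at 0 and 0 FPKM in its untreated libraries and 0 and 0 FPKM in its irradiated ones, Os08g0509500 at 8.72 and 5.43 FPKM in its untreated libraries and 0 and 0 FPKM in its irradiated ones and OsWRKY60 at 5.11 and 5.61 FPKM in its untreated libraries and 0 and 0 FPKM in its irradiated ones.

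Among genes that fell in DJ it was 5.21 for OsTCL2, 6.88 for Os08g0390200, 3.56 for OsGSTU14, 2.21 for OsXTH2, 7.48 for OsFLA4, 2.83 for OsFLA9, 2.16 for petD and -1.76 for the Rubisco small subunit gene Os12g0292400. In ku70 Os08g0390200 stood at 0 and 0 FPKM in its untreated libraries and 5.57 and 7.61 FPKM in its irradiated ones, OsFLA4 at 0.856 and 0 FPKM in its untreated libraries and 15.5 and 10.8 FPKM in its irradiated ones and Os12g0292400 at 573 and 562 FPKM in its untreated libraries and 44.9 and 46.4 FPKM in its irradiated ones. The Rubisco gene was thus lower after irradiation in both lines, and more so in ku70. RNRS2, not called in DJ, had a difference of 8.22. In ku70 Os03g0165375 and OsFLA9 were at 0 in every library, as was Os04g0493600. For OsGSTU14, OsXTH2 and petD the difference was equal in size to the DJ fall, with no net change in ku70. For these 6 the difference only restates the DJ change. The 13 genes were picked for being called or listed in DJ, which enters the difference, and 11 of the 13 had a 0 in at least 1 DJ library.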

How the results depend on the processing

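No called gene changed direction in 20 other settings, which was largely set in advance because they draw on the same DJ values. The number of 237 calls was not stable, and 85 of the 237 were called in at least 10 of 21 settings. In the order total, higher, lower, reads in all 4 DJ libraries, at 0 in both controls, at 0 in both irradiated libraries and shared with the authors' deposited DJ table, the calls were 237, 111, 126, 69, 70, 86 and 125. They were 416, 185, 231, 93, 131, 183 and 202 with a pseudocount of 0.1 FPKM. They were 114, 49, 65, 45, 24, 37 and 83 with a filter at 5 FPKM, and 81, 24, 57, 40, 17, 24 and 78 with limma-voom on the recovered reads. After quantile normalisation they were 73, 44, 29, 24, 21, 23 and 46, and with library weights 150, 74, 76, 33, 54, 57 and 73. With only genes above 0 in all 4 DJ libraries 3 rose, 0 fell and 3 were shared, and with only the 4 DJ libraries every count was 0 (2594 genes at an unadjusted p under 0.05). With plain library sizes they were 335, 208, 127, 109, 110, 100 and 161, and with 1 FPKM also required in 2 DJ libraries 2 rose, 0 fell and 2 were shared; both were chosen after seeing the data. Numbers of replicates did not pair the libraries (correlation of deviations -0.0739 in DJ), and with the replicate number as a block 1 gene rose, 0 fell and 1 was shared. Leaving out 1 library at a time gave 0 to 284 calls, 0 to 171 higher, 0 to 226 lower, 0 to 59 with reads in all 4, 0 to 63 at 0 in both controls, 0 to 79 at 0 after irradiation and 0 to 73 shared. The 0 came without either ku70 40 Gy library (3683 and 3684 genes at an unadjusted p under 0.05), and a lone library is then assumed to vary like the others. Gene lists with a call numbered 25, against 16 with library weights, 16 with limma-voom, 12 after quantile normalisation, 0 with only genes above 0 in all 4 DJ libraries, with only DJ, with the block and with the DJ filter, and 0 to 23 leaving out a library. Differences between the ku70 and DJ responses numbered 266, against 741 with the pseudocount of 0.1, 118 at 5 FPKM, 554 with limma-voom, 142 with weights, 2 after quantile normalisation, 53 with genes above 0 in all 4, 27 with the DJ filter, 0 with the block and 249 to 420 leaving out a library. The ku70 calls, 2287, ran from 443 to 2302 leaving out a library. The chloroplast ribosome median turned from -0.29 to 0.046 with plain library sizes. After quantile normalisation the medians of jasmonate, chloroplast ribosome and translation factor genes were -0.28, -0.17 and 0.55, and with genes above 0 in all 4 DJ libraries the jasmonate median was -0.75. The causes were not tested. Depth limits genes with few reads: a count of 0 in a library of 10812846 to 14532121 reads allows 3 reads by counting error only. Listed zeros went beyond that limit. Of genes with at least 100 reads in a DJ library, 1.12% to 3.25% were at 0 in the other library of the same group.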
